A study of Ovis aries with 16 samples.

Results

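The 8 transfer RNA (tRNA) genes on the light strand of the sheep mitochondrial genome were followed in the myocardium, or heart muscle. They were taken by identifier from a table of 27054 genes. In genome order they encode the tRNAs for glutamine (Gln, ENSOARG00000000008), alanine (Ala, ENSOARG00000000012), asparagine (Asn, ENSOARG00000000013), cysteine (Cys, ENSOARG00000000014), tyrosine (Tyr, ENSOARG00000000015), serine with the UCN codons (Ser(UCN), ENSOARG00000000017), glutamate (Glu, ENSOARG00000000034) and proline (Pro, ENSOARG00000000037). The table holds identifiers without names, and the names rest on the order of the 37 mitochondrial genes in the Oar_v3.1 gene set. In the RefSeq table of the assembly ARS-UI_Ramb_v3.0, the class of gene (tRNA, rRNA or mRNA) was the same at 37 of 37 places in that order.

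Hearts of 21-month-old female sheep were compared in 4 groups of n = 4 animals. Control animals were daughters of ewes given corn oil and were kept on the control diet. BPA animals were daughters of ewes injected under the skin with bisphenol A, a chemical of plastics that can act on oestrogen receptors, at 0.5 mg/kg each day in corn oil from day 30 to day 90 of gestation, and had the control diet. Obese animals had vehicle-treated mothers and were overfed from 14 weeks of age with more corn and hay and later free access to feed, and ObBPA animals had both the prenatal BPA and the overfeeding. All animals, controls included, had been given prostaglandin F2α to synchronise the ovarian cycle and were killed with a barbiturate. All mothers had chlortetracycline in the feed late in pregnancy, and ewes and lambs were treated against worms. Which animals shared a mother is not stated. The libraries of each group are numbered 0 to 3. Each came from a different animal, and each was made from poly-A RNA of the whole tissue piece, so fewer cells of a type and less RNA per cell cannot be told apart. The labelled tissue was not checked against heart markers, since the nuclear genes of the table are not named.

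Both strands of the vertebrate mitochondrial genome are transcribed into long precursors that run through many genes. The tRNA genes lie between the rRNA and mRNA genes, and the tRNAs are cut out by RNase P at their start and by the RNase Z enzyme ELAC2 at their end, which frees the neighbouring RNAs. The light strand carries only these 8 tRNA genes and the mRNA gene ND6, and each tRNA delivers its amino acid to the mitochondrial ribosome. Ala, Asn, Cys and Tyr form a cluster around the origin of light-strand replication, and Pro is the gene next to the control region, where transcription starts. The labels do not say that strand was marked. Reads of a light-strand tRNA and reads of the opposite strand at the same place, which heavy-strand precursors cross, therefore cannot be told apart. Reads at a tRNA gene may also come from a precursor not yet cut, and the share of cut tRNAs in poly-A RNA was not measured. The values below are therefore read levels at the genes and not amounts of finished tRNA.

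The 8 genes took a large part of the expression scale. Values are FPKM. The fragments of a gene are divided by a length for that gene and by a scaling number for the library. How the scaling number was set is not given in the sources used here. Together the 8 genes made up 54.8% ± 6.14 (SD, n = 16 libraries) of the FPKM summed over all genes, lowest in control library 0 at 43.9% and highest in BPA library 3 at 63.2%. By group this share was 54.8% ± 7.78 for control, 59.5% ± 5.26 for BPA, 52.4% ± 5.59 for obese and 52.6% ± 5.10 for ObBPA animals (SD, n = 4 each), and the groups overlapped. Pro alone made up 68.1% ± 7.86 of the sum of the 8 genes (SD, n = 16). By mean FPKM, Pro ranked 1, Glu 2, Cys 4, Tyr 6, Asn 14, Ala 16 and Gln 19 among all genes of the table.

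In genes this short, each read adds a large amount of FPKM. In the 12 libraries numbered 1 to 3, the values of each of these genes were whole multiples of a common step, once the libraries were brought to the same relative depth, and the step is the FPKM that 1 read gives. In control library 3, 1 read was worth 208 FPKM in Pro, 169 in Cys and Tyr, 153 in Ala and Glu, 116 in Gln and 107 in Asn. The largest departure from a whole number of reads was 0.0192, in Pro. Over the 17 tRNA genes with reads, the steps fell into 10 values. Genes of the same length in the RefSeq table shared a step within 0.1%, and the longer length had the smaller step at 9 of 9 places. In control library 3 the steps ran from 90.8 FPKM in Leu(UUR) to 456 FPKM in Ser(AGY). How the length of each gene was set is not given in the sources used here. Shares and orders of genes in FPKM rest on that setting. Relative depth here means the ratio of the scaling numbers of the libraries, as recovered from the FPKM values. Whether it follows the number of reads sequenced was not tested. With control library 3 set to 1, relative depth was lowest for control library 1 at 0.539 and highest for BPA library 3 at 1.75. The 4 libraries numbered 0 gave no common step, and the reads behind their values are unknown. At most 26 low-level genes shared the commonest ratio to control library 3 there, against 484 to 774 in the other 11 libraries.

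In reads, the lowest, median and highest library held 3692, 6491 and 17692 for Pro, 1210, 2002.5 and 3557 for Glu, and 297, 697 and 2369 for Cys. For Tyr they held 158, 391.5 and 1327, for Asn 96, 233.5 and 722, for Ala 70, 140.5 and 399, and for Gln 42, 92.5 and 207. The fewest reads, 42 for Gln in obese library 1, have an exact 95% Poisson interval of 30.3 to 56.8, which covers counting error only. Per unit of relative depth, the coefficient of variation over the 12 libraries was 63.1% for Gln, 38.7% for Cys, 38.2% for Tyr, 35.3% for Asn, 32.9% for Ala, 30.3% for Pro and 30.1% for Glu. Counting error alone, which leaves out the differences between animals, would give 10.1% for Gln, 8.03% for Ala, 6.36% for Asn and between 1.21% and 4.73% for the other 4 genes.

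**Figure D1:**
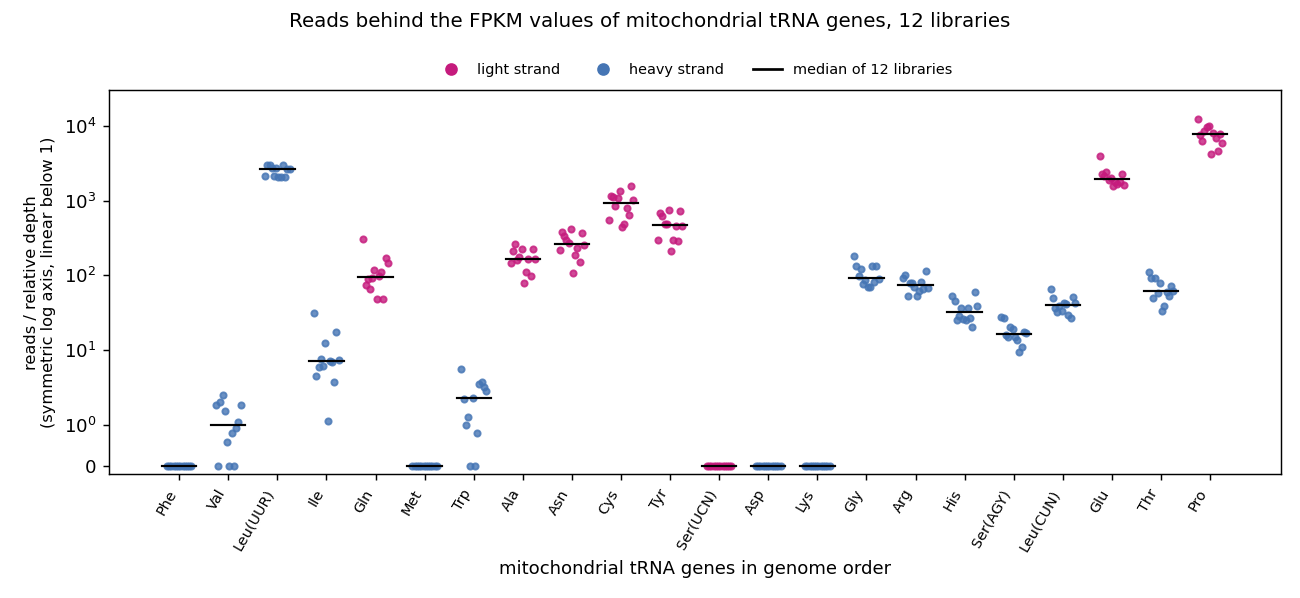
Reads per unit of relative depth (symmetric log axis) for the 22 mitochondrial tRNA genes in genome order. Each point is 1 of the 12 libraries numbered 1 to 3, bars are medians, and colour gives the strand. Pro is highest, Glu and the heavy-strand Leu(UUR) follow, and Ser(UCN) lies at 0 with 4 heavy-strand genes.

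The order of the levels by FPKM was Pro, Glu, Cys, Tyr, Asn, Ala and Gln, with Ser(UCN) at 0. Pro exceeded Glu in 16 of 16 libraries, by a mean log2 ratio of 2.13 ± 0.47 (SD). Glu exceeded Cys in 16 of 16, Cys exceeded Tyr in 16 of 16 and Tyr exceeded Asn in 16 of 16. Asn exceeded Ala in 13 of 16 libraries, by a mean log2 ratio of 0.13 ± 0.17 (SD). In reads, which are not divided by length, Asn was above Ala in 12 of 12 libraries, by a mean log2 ratio of 0.64 ± 0.16 (SD). Ala exceeded Gln in FPKM in 14 of 16 libraries, by a mean log2 ratio of 0.97 ± 0.99 (SD), from -1.71 to 2.13. These ratios were not tested. The FPKM of 1 read differs between genes, so the ratios in FPKM and in reads are not the same quantity.

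The 8 light-strand genes were set beside the 14 heavy-strand tRNA genes. Light-strand genes held 79.7% ± 4.05 of all mitochondrial tRNA reads (SD, n = 12), from 74.3% in obese library 1 to 86.8% in control library 1. Pro held 64.9% ± 4.72 of the light-strand reads. Of the light-strand genes, 1 of 8 was listed at 0 in all 16 libraries and 7 of 8 were above 0 in all. Of the heavy-strand genes, 4 of 14 were listed at 0 in all libraries and 8 of 14 were above 0 in all. Neighbours on opposite strands could differ widely: Thr, beside Pro, had 29 to 136 reads a library. Leu(UUR), beside the 16S rRNA gene, was the only heavy-strand tRNA gene in the range of Glu, with 1139 to 4803 reads.

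Pro, which carries proline, had the highest values in the table. Its FPKM in control libraries 0 to 3 was 522445, 2548360, 1585630 and 1326250. In BPA libraries 0 to 3 it was 1215220, 1777880, 2038620 and 2104120. The control libraries thus spanned both the lowest and the highest value of the 16, and all BPA values lay between them. The obese libraries had 1060590, 868925, 1666540 and 1434290. The ObBPA libraries had 974400, 949965, 1646500 and 1236660. Both overfed groups lay inside the control range.

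Glu, which carries glutamate and lies beside ND6, varied least. Its FPKM was 274610, 600171, 348851 and 323139 in the control libraries. It was 296476, 371840, 284123 and 310191 in the BPA libraries. Control library 1 stood above the other 15 libraries. The obese libraries held 249372, 242465, 275110 and 257203, the narrowest group, and the ObBPA libraries held 336503, 267844, 344918 and 246479. The obese and control groups overlapped only through obese library 2 at 275110 and control library 0 at 274610.

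Cys and Tyr, the more abundant genes of the cluster, moved together. In control libraries 0 to 3 the FPKM of Cys was 184327, 93000.1, 194810 and 190264, and in the BPA libraries 187280, 144427, 182758 and 228075. With overfeeding, Cys stood at 183450, 74683.8, 81594.5 and 132184 (obese) and 146340, 107342, 264098 and 169874 (ObBPA). Control library 1 was the lowest of its group, where Pro and Glu had their highest values. In control libraries 0 to 3 the FPKM of Tyr was 82135.5, 49474.8, 113593 and 103566, and in the BPA libraries 76566.7, 81174.1, 81658 and 127757. With overfeeding, Tyr stood at 74177, 35436.7, 50710 and 77939.7 (obese) and 60801.9, 48607.9, 120689 and 76247.5 (ObBPA). For both genes obese library 1 was the lowest of the 16, and library 1 was the lowest of the control, obese and ObBPA groups.

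Asn and Ala, which carry asparagine and alanine, had lower values, and library 1 was again the lowest of the control, obese and ObBPA groups. In control libraries 0 to 3 the FPKM of Asn was 39836, 23170.9, 40004.4 and 35417.3, and in the BPA libraries 34688.6, 31203.5, 29183.6 and 43962.3. With overfeeding, Asn stood at 33245.8, 11567.5, 19874.3 and 25018.3 (obese) and 27361.8, 15962.4, 39659.6 and 26735.6 (ObBPA). Obese library 1 again lay at the bottom, and the 4 groups overlapped. In control libraries 0 to 3 the FPKM of Ala was 35269.1, 22407.2, 32545.8 and 40182.4, and in the BPA libraries 33880.4, 24445.5, 27238.2 and 34795.1. With overfeeding, Ala stood at 34747.4, 12080.1, 17102.8 and 25010.8 (obese) and 20792.4, 15099.7, 34244.8 and 25527.1 (ObBPA). The obese mean was 22235 ± 9895 and the control mean 32601 ± 7495 (SD, n = 4 each), with obese library 0 above control libraries 1 and 2.

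Gln, which carries glutamine and lies between the heavy-strand genes Ile and Met, varied most. Its FPKM was 8040.42, 36003.8, 8632.59 and 10451.9 in the control libraries. It was 110829, 7548.57, 10530.4 and 13721.1 in the BPA libraries. BPA library 0 was thus more than the other 3 BPA libraries together. The obese libraries had 14557.7, 5509.27, 11235.6 and 12808.7, and the ObBPA libraries had 12484.3, 5577.76, 20022.7 and 17031.7. The highest library exceeded the lowest by 20.1-fold, against 2.48-fold for Glu.

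Ser(UCN), which carries serine, was listed at 0 in all 16 libraries, and the heavy-strand genes Asp and Lys that follow it were at 0 as well. It lies just after COX1, at 73524 to 112516 FPKM, and before a run of low genes. Between Asp and Lys, COX2 was listed at only 12.9 to 36.2 FPKM, and ATP8, after Lys, was at 0 in 11 of 16 libraries. Both encode subunits of respiratory enzymes. ATP6, the next gene, was at 39625 to 71281 FPKM. Since a listed 0 may stand for an estimate that failed, no level of Ser(UCN) is given. Whether the low values of COX2 and ATP8 reflect the levels of their RNA was not tested.

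**Figure D2:**
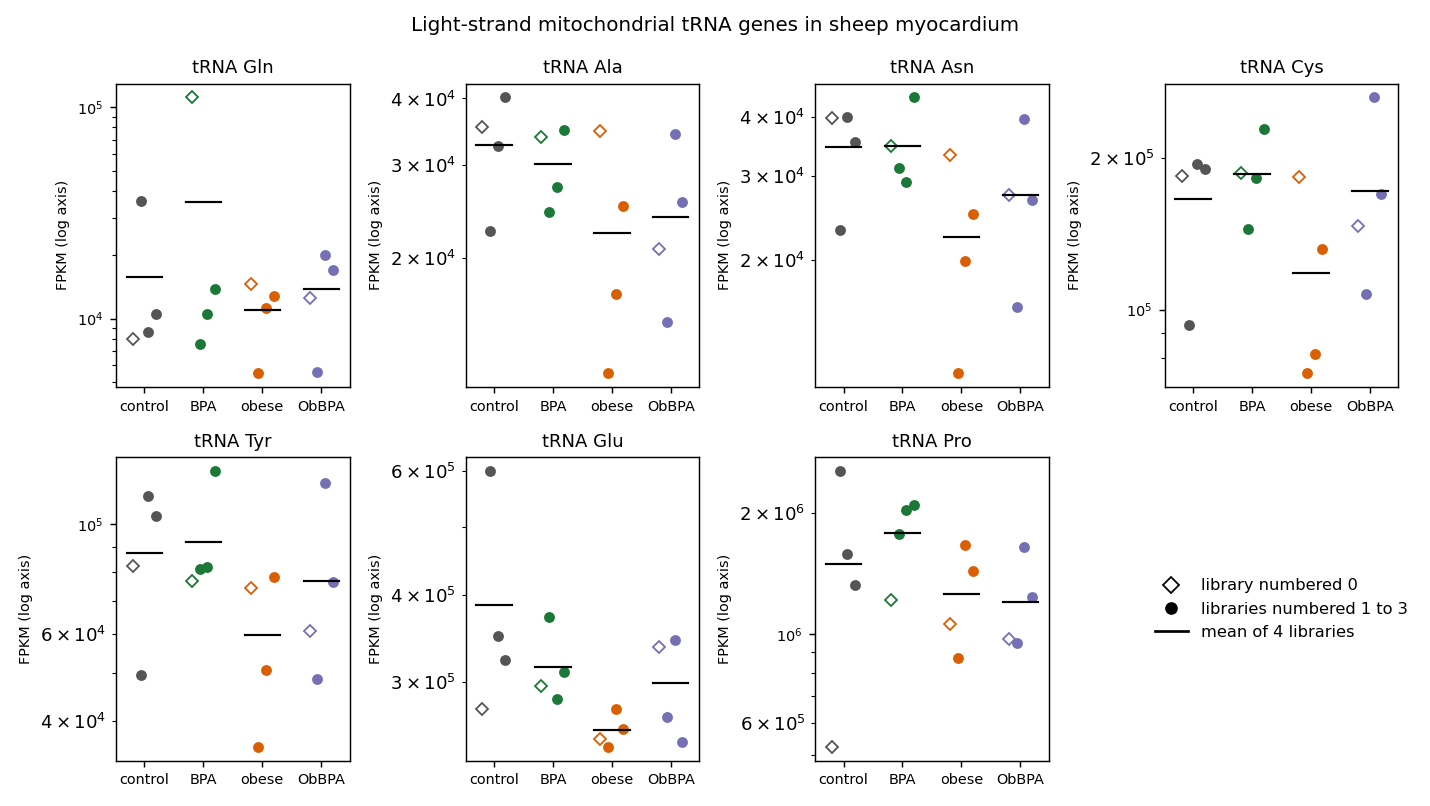
FPKM (log axis, scaled per gene) of the 7 genes above 0 in the 4 groups. Each point is 1 animal, bars are means of 4 libraries, and open diamonds are the libraries numbered 0. The groups overlap in every panel; BPA library 0 stands apart for Gln and control library 1 for Glu.

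The 7 genes with values did not vary as 1 block. Likeness was measured as the root-mean-square difference between gene profiles, on log2(FPKM + 1) after the mean of each gene was removed, over the 16 libraries and among the 13251 genes with FPKM of at least 1 in at least 4 libraries. For Ala, Asn, Cys and Tyr, the 3 most similar profiles were in each case the other 3 genes of that cluster. Their differences lay between 0.16 (Ala and Asn) and 0.24 (Ala and Tyr), beside an own spread of 0.48 to 0.51. These genes share libraries, depth and, as neighbours, possibly reads that cross their borders. Gln was most similar to the heavy-strand tRNA genes Gly (0.65) and Thr (0.69) and to the 16S rRNA gene (0.71), with an own spread of 1.03. The deviation of Gln in BPA library 0 was 3.07, its largest, and Gly, Thr and 16S were also highest in that library. The likeness of Gln was not computed without it. The light-strand gene nearest to Gln was Ala, at 0.96. BPA library 0 was the highest library for Gln and for 9 of the 10 heavy-strand tRNA genes above 0 in any library, and for none of the other 6 light-strand genes.

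Glu and Pro had no mitochondrial gene among their 3 nearest profiles. The nearest of Glu were ENSOARG00000012764, ENSOARG00000012942 and ENSOARG00000026389, at 0.14, 0.14 and 0.15 beside an own spread of 0.31. The nearest of Pro were ENSOARG00000004636, ENSOARG00000006553 and ENSOARG00000004824, at 0.32, 0.32 and 0.33 beside an own spread of 0.55. Pro and Glu differed from each other by 0.46. The residual SD within groups, on the log2 scale, was 1.14 for Gln, 0.58 for Pro, 0.50 for Cys and Tyr, 0.48 for Asn, 0.47 for Ala and 0.29 for Glu. The median over all 13251 genes was 0.23, and 0.30 over those with a mean FPKM of at least 1000.

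**Figure D3:**
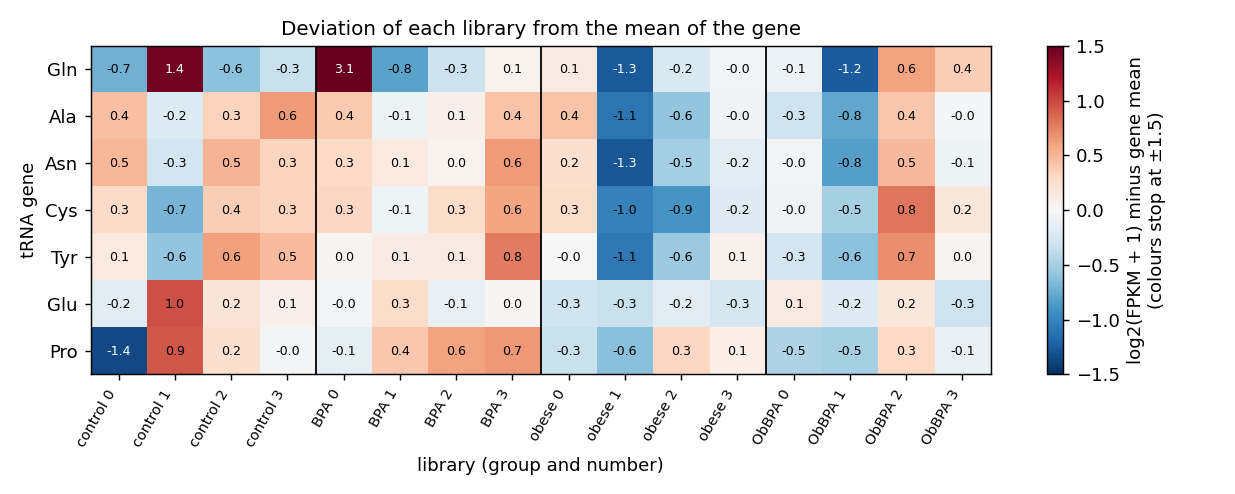
Log2(FPKM + 1) of each gene minus its mean over 16 libraries, with libraries in columns by group and genes in rows. Ala, Asn, Cys and Tyr move together. All genes shown are below their mean in obese library 1, from -1.29 for Asn to -0.34 for Glu. Control library 1 is high for Gln, Glu and Pro and low for the cluster.

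The first comparison, BPA against control, takes prenatal BPA in animals on the control diet. By limma with Benjamini-Hochberg adjustment over 13251 genes, 0 of 7 light-strand genes were called at a false discovery rate of 0.05. Of all genes, 0% were called. An unadjusted p under 0.05 was found for 0 of 7, against 2.45% of all genes. The fitted mean was lower for 2 of the 7 genes (4 when libraries were scaled to equal summed FPKM, 5 without control library 1) and the median of the 7 log2 differences was 0.11, against -0.00011 over all genes. Glu differed by -0.23 ± 0.21 (log2, SE, adjusted p = 0.999) and Pro by 0.43 ± 0.40 (SE, adjusted p = 0.999). In the FPKM as deposited, the 10 heavy-strand tRNA genes tested had a median of 0.28, with 9 higher. The libraries of the groups overlapped for all 7 genes, while they did not for 1.18% of all genes. The 95% interval for Pro ran from -0.42 to 1.28, on both sides of 0. Both values moved with single libraries. Without control library 0 the difference of Pro (ENSOARG00000000037) was -0.0043, and without control library 1 it was 0.76. Without control library 1 the difference of Glu (ENSOARG00000000034) was -0.00015, and with library weights it was -0.029.

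The same exposure in overfed animals is seen in ObBPA against obese. Again limma called 0 of 7 genes, with 0% of all genes called. An unadjusted p under 0.05 was found for 0 of 7, against 1.96% of all genes. The mean of Cys was 117978 ± 50618 FPKM (obese) and 171914 ± 66647 FPKM (ObBPA, SD, n = 4), and its log2 difference was 0.56 ± 0.34 (SE, adjusted p = 1). Tyr differed by 0.35 ± 0.34 (SE, adjusted p = 1). Here 6 genes had higher means and 1, Pro, a lower one, under each scaling, with a median of 0.26 against 0.013 over all genes. Without obese library 1 the median was 0.034, with 3 of 7 lower. As deposited, the 10 heavy-strand tRNA genes tested had a median of 0.18, with 8 higher. Groups overlapped for all 7 genes, and did not for 2.02% of all genes. Without the libraries numbered 0, the difference of Cys (ENSOARG00000000014) was 0.86 ± 0.41 (SE), but without ObBPA library 2 it was 0.33 and without obese library 1 it was 0.38. Tyr (ENSOARG00000000015) was at 0.10 without ObBPA library 2 and at 0.12 without obese library 1, and at 0.56 without the libraries numbered 0. Pro (ENSOARG00000000037), at -0.056, turned positive in 4 of the fits that left out 1 library, with 0.094 the highest.

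Overfeeding without prenatal BPA is seen in obese against control. All 7 genes had a lower fitted mean in obese hearts (6 of 7 under either scaling to equal summed FPKM), and the median log2 difference was -0.53, against -0.0098 over all genes, of which 52.1% were lower. Because the 7 genes come from the same libraries, their count is not 7 independent observations. The mean of Glu was 386693 ± 145610 FPKM (control) and 256038 ± 14068 FPKM (obese, SD, n = 4), and its log2 difference was -0.53 ± 0.21 (SE). For Asn the means were 34607 ± 7914 and 22427 ± 9096 FPKM (SD, n = 4), and the difference was -0.69 ± 0.32 (SE). The adjusted p of both was 0.834 by limma, and 0 of 7 genes were called, with 0% of all genes called. At an unadjusted p under 0.05 there were 2 of 7 genes, against 4.45% of all genes. Groups overlapped for all 7 genes, and did not for 1.89% of all genes.

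These values moved with single libraries. Without obese library 1, 5 of 7 genes were lower, with a median of -0.34, and without control library 1, 5 of 7 were lower, with a median of -0.78. Without the libraries numbered 0, 7 of 7 were lower, with a median of -0.69. Without control library 1, Glu (ENSOARG00000000034) differed by -0.30 ± 0.14 (SE), and without obese library 1, Asn (ENSOARG00000000013) differed by -0.41 ± 0.30 (SE). Under equal summed FPKM the difference of Glu was -0.32. With the libraries numbered 0 left out, Glu (ENSOARG00000000034) stood at -0.66 ± 0.27 (SE) and Asn (ENSOARG00000000013) at -0.84 ± 0.38 (SE). In the FPKM as deposited, the 10 heavy-strand tRNA genes tested had a median of -0.17, the 12 heavy-strand mRNA genes a median of -0.13, and ND6, the light-strand mRNA gene, a difference of -0.37. None of these genes was called by limma, and the lists were not recomputed under other scalings.

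ObBPA against BPA takes overfeeding after prenatal BPA, in other libraries than obese against control. All 7 genes had a lower fitted mean here as well (5 of 7 under equal summed FPKM), and the median log2 difference was -0.38, against 0.0062 over all genes, of which 47.8% were lower. Without the libraries numbered 0, 6 of 7 were lower, with a median of -0.27, and without ObBPA library 1 the median was -0.16. The mean of Pro was 1783960 ± 404498 FPKM (BPA) and 1201880 ± 323576 FPKM (ObBPA, SD, n = 4), and its log2 difference was -0.57 ± 0.40 (SE). For Asn the means were 34760 ± 6543 and 27430 ± 9688 FPKM (SD, n = 4), and the difference was -0.40 ± 0.32 (SE). Without ObBPA library 1 the difference of Asn (ENSOARG00000000013) was -0.16, and under equal summed FPKM it was -0.11. Under equal summed FPKM Pro (ENSOARG00000000037) was at -0.28. The adjusted p was 1 for both by limma. No gene of the 7 was called, with 0% of all genes called. An unadjusted p under 0.05 was found for 0 of 7, against 1.67% of all genes. Groups overlapped for all 7 genes, and did not for 1.77% of all genes. The lower values were not particular to the light strand. As deposited, 8 of the 10 heavy-strand tRNA genes tested were lower, with a median of -0.28. The 12 heavy-strand mRNA genes had a median of -0.0096.

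These directions moved with the scaling. When libraries were scaled to equal summed FPKM, a sum of which Pro alone is 20.0% to 48.5%, the median over all genes rose to 0.17 in obese against control and to 0.26 in ObBPA against BPA. The lower genes were then 6 of 7 and 5 of 7. Relative to all genes, the light-strand medians of -0.32 and -0.089 under that scaling were lower.

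Both exposures against neither are compared in ObBPA against control, which shares libraries with each of the contrasts above. Ala differed by -0.48 ± 0.31 (SE) and Glu by -0.32 ± 0.21 (SE), and limma gave both an adjusted p of 0.941. Without control library 1, Glu (ENSOARG00000000034) was at -0.086, and under equal summed FPKM it was at -0.15. Ala (ENSOARG00000000012) was at -0.28 without ObBPA library 1. The difference was below 0 for 6 of 7 genes (4 under equal summed FPKM) and 0.037 for Cys, with a median of -0.20 against 0.0081 over all genes. Cys (ENSOARG00000000014) was below 0 without ObBPA library 2, at -0.20, without control library 1, at -0.22, and with library weights, at -0.17. The median of the 7 genes was -0.042 without ObBPA library 1 and -0.39 without ObBPA library 2. The number called was 0 of 7, with 0% of all genes called. An unadjusted p under 0.05 was found for 0 of 7, against 3.54% of all genes. Groups overlapped for all 7 genes, and did not for 1.41% of all genes. As deposited, 7 of the 10 heavy-strand tRNA genes tested were lower, with a median of -0.091.

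The interaction asks whether prenatal BPA had unequal effects under the 2 diets. Glu had an interaction of 0.44 ± 0.30 (log2, SE) and Pro of -0.49 ± 0.56 (SE), with an adjusted p of 0.999 for both by limma. Without control library 1, Glu (ENSOARG00000000034) was at 0.21 and Pro (ENSOARG00000000037) at -0.81, and without control library 0 Pro was at -0.052. Of the 7 genes, 5 had a positive and 2 a negative interaction. As deposited, 8 of the 10 heavy-strand tRNA genes tested had a negative interaction, with a median of -0.14. None of the 7 was called, with 0% of all genes called. None of the 7 had an unadjusted p under 0.05, against 2.72% of all genes. For Gln the 95% interval ran from -2.53 to 1.94.

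**Figure D4:**
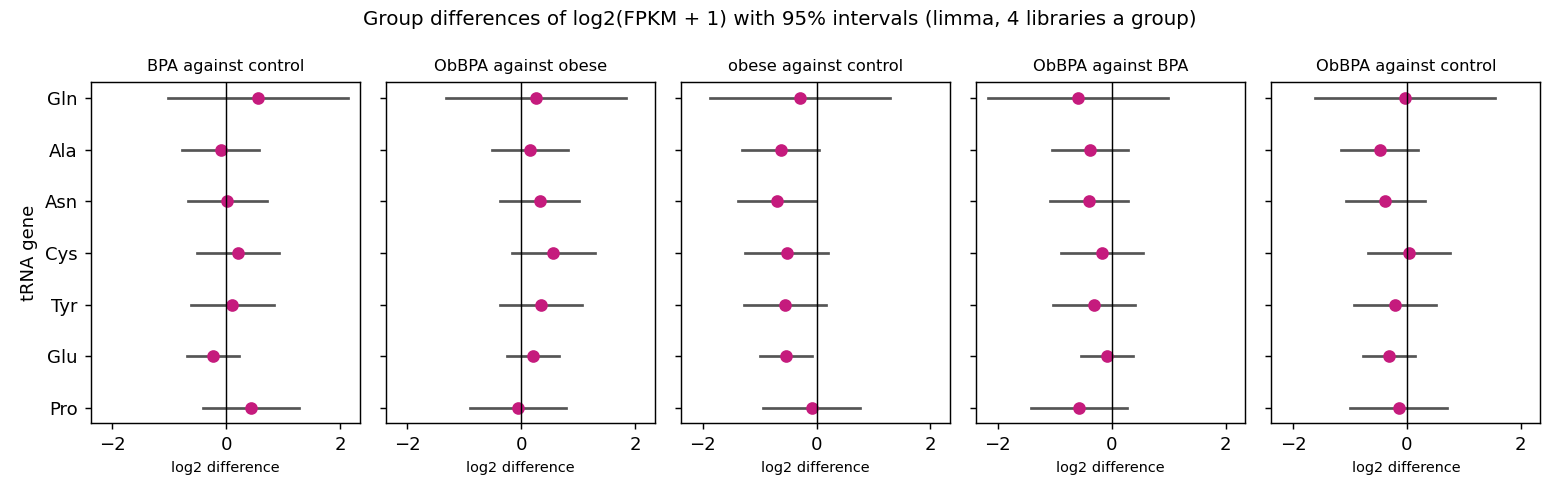
Log2 differences of the 7 genes with 95% intervals from limma for the 5 group comparisons, with 4 libraries a group. All 7 points lie below 0 in obese against control and in ObBPA against BPA (6 and 5 of 7 under equal summed FPKM); only the intervals of Asn and Glu in obese against control leave out 0, and neither passed adjustment.

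The libraries numbered 0, 1 in each group, were compared with the other 12, with the group as a term. Of all genes, 23.8% were called by limma, and of the 7 light-strand genes 0 were. At an unadjusted p under 0.05 there was 1 of 7, against 37.9% of all genes. The count over all genes depended on the scaling, with 3150 of 13251 called as deposited and 45 of 13367 under equal summed FPKM. Pro was lower in the libraries numbered 0, with a log2 difference of -0.77 ± 0.27 (SE; -0.50 under equal summed FPKM, -0.44 without control library 0) and an adjusted p of 0.0542. Gln was higher by 0.80 ± 0.59 (SE, adjusted p = 0.344), and without BPA library 0 its difference was -0.072. With a pseudocount of 10, without a variance trend, or without control library 1, obese library 1 or ObBPA library 1, Pro (ENSOARG00000000037) was called by limma, at an adjusted p of 0.0292 to 0.0472; over all alternatives its adjusted p ran from 0.0292 to 0.843. The libraries numbered 0 had no common step with the other 12, and the part of this in the difference of Pro was not tested.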

How the data were processed

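Poly-A RNA of 16 myocardium samples was sequenced, 4 per group. The deposited table holds FPKM values made by the authors. TopHat2 2.0.9 and Bowtie2 2.1.0, Cuffdiff 2.1.1 and Cufflinks, and FastQC are named, with genome build Oar_v3.1, per the submitters' processing notes; their settings are not given in the sources used here. FPKM divides by a length set for each gene, so short genes get large values from few reads.

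Genes with FPKM of at least 1 in at least 4 libraries (13251 of 27054, 7 of the 8 light-strand tRNA genes) were fitted as log2(FPKM + 1) with limma 3.58.1 in R 4.3.3: 4 group means, a trended prior, 12 residual degrees of freedom plus 2.36 from the prior, two-sided tests, Benjamini-Hochberg adjustment within each contrast over all genes tested, false discovery rate 0.05. Log2 differences are on that scale. Of the 7 genes, the 2 with the largest moderated t in each contrast are given with SE and adjusted p.

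Relative depth came from the commonest ratio of low values (FPKM under 50) to control library 3, and reads per gene from the largest step for which all 12 values were whole within 0.1 read. The limma fit, and the recovery of reads at known depths, were tested on simulated data; the estimate of relative depth was not. Absolute depth is unknown, and no count model was used. Python 3.11.15, numpy 2.4.6, pandas 2.3.3, scipy 1.17.1 and matplotlib 3.10.9 were used.

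Members, lists and tests were chosen with earlier results of these data known. The alternatives changed the pseudocount, filter, scaling, variance model, weights, libraries fitted and replicate block, and left out each library. Lists of nuclear tRNA-processing genes and of cell type markers were not tested, because 0 identifiers of the table matched the RefSeq table. No tRNA sequence was at hand, so none is shown.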

Additional observations from a re-analysis of the deposited data

Results flagged for a closer look

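Of 32 sets of 4 libraries examined (7 genes and the summed share, in 4 groups), 4 held a library far from the other 3, and chance flags about 1 in 20 sets, or 1.6 here. The sets share libraries and are not independent. Gln stood apart in BPA library 0, at 110829 FPKM, and in control library 1, at 36003.8 FPKM. Cys was low in control library 1, at 93000.1 FPKM, and Tyr was high in BPA library 3, at 127757 FPKM.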

How the results depend on the processing

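The count of light-strand tRNA genes called stayed at 0 in the 5 group comparisons and the interaction under each of the 29 alternatives (28 for the interaction), with the replicate block included (0 called in each). The lowest adjusted p of any of the 7 genes over them was 0.187, in obese against control. The labels tie no number to a shared litter or day. Correlations of deviations between same-numbered libraries ran from 0.047 to 0.16 for number 0 and from -0.084 to 0.072 for numbers 1 to 3. The highest was that of obese and ObBPA library 0, and the next, of BPA and ObBPA library 0, was 0.094. On average, 8 of 16 libraries correlated best with their own number, among them all 4 numbered 0. That is a hint from the data and not from the design. For the libraries numbered 0, the count was 1 with a pseudocount of 10, 1 without a trend, and 0 to 1 leaving out each library. Leaving out each library, Pro in BPA against control ran from -0.0043 to 0.76, and Gln in the libraries numbered 0 from -0.072 to 1.36. None of the other differences given with an SE changed sign; Pro in ObBPA against obese and Cys in ObBPA against control, both near 0, did. Of all genes, 0 to 6 were called over the alternatives of the group comparisons, and 45 to 4789 for the libraries numbered 0, where 3150 were called as deposited (45 under equal summed FPKM, 1260 under equal summed FPKM of genes outside the mitochondrial genome, 1604 under median-of-ratios scaling, 1587 without control library 0, 1903 without obese library 0 and 4789 without control library 1). The share of the 8 genes was 76.0% of the 37 mitochondrial genes, against 54.8% of all. Of the 7 genes with values, Gln had the fewest reads in total, with 42 in its lowest library. Its coefficient of variation per unit of relative depth was 63.1%, of which counting error alone would give 10.1%.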
